A study of Mus musculus with 5 samples.

Results

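The report concerns 38 genes of homologous recombination, the Fanconi anaemia pathway and DNA mismatch repair, among the 16003 genes with an expression value. They were taken by symbol from a fixed list, and each of the 38 had a value in every library used. The cells were RAW264.7, an established mouse monocyte/macrophage line that can form osteoclast-like cells. Control cells expressed Renilla luciferase, and CD137 cells carried the luciferase and also mouse Cd137, which encodes a TNF-family receptor that co-stimulates lymphocytes; no further treatment or time is given in the labels. The series holds 2 control and 3 CD137 samples, and 3 libraries were used here, control replicate 2 and CD137 replicates 2 and 3, so the control is 1 library with no replicate error. The other 2 samples were not analysed here. The promoter behind the introduced sequences, and whether each group is 1 clone or a pool, were not stated in the labels. No label ties the libraries to different cultures, and the p-values therefore cover the spread between libraries alone, which may be technical.

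Homologous recombination copies an intact sister chromatid to mend a broken one. Broken ends are sensed and cut back to single strands, which the BRCA proteins load with a strand-exchange recombinase; motor proteins, helicases and nucleases then finish and separate the joined molecules. The Fanconi proteins recognise crosslinks between strands, mark them with ubiquitin and pass them to the same machinery, while mismatch repair removes errors left by DNA polymerases. Many of these genes are known to be transcribed most in S phase, when a sister chromatid is present. In bulk RNA, fewer cells in S phase and less RNA per cell cannot be told apart.

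Tnfrsf9, which encodes CD137, stood at 5.06 FPKM in the control library, FPKM being fragments counted relative to transcript length and library depth. In CD137 replicates 2 and 3 it stood at 364 and 370 FPKM, the direction the labels give. Depth, solved from the authors' p-values, was 0.983 and 0.988 of the control in the CD137 libraries. All 9 macrophage markers were above 1 FPKM throughout. Adgre1, Ptprc, Itgam, Spi1 and Fcgr1 were higher in both CD137 libraries, and Cd68, Csf1r, Tyrobp and Lyz2 were lower. Their summed level was 3432 FPKM in the control against 2248 and 2303 FPKM in CD137 cells, of which Lyz2 alone made up 1693 FPKM against 646 and 669 FPKM. The measured markers of T cells, B cells and neutrophils were under 1 FPKM, as were those of fibroblasts, osteoblasts and endothelial cells apart from Runx2 (3.90 FPKM against 2.69 and 3.13 FPKM) and Pecam1 (1.45 FPKM against 1.54 and 1.71 FPKM). The 4 measured epithelial markers, keratins among them, had a summed level of 6.28 FPKM in CD137 replicate 2, above the 0.67 FPKM of the control and the 1.17 FPKM of CD137 replicate 3.

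Most of the 38 repair genes were lower in CD137 cells. In a limma fit of log2(FPKM + 1) over 10720 expressed genes (1 FPKM or more in any library), 27 of the 38 fell, 1 rose and 10 did not pass an adjusted p of 0.05. Among all expressed genes 18.2% fell and 24.4% rose. "Fell" and "rose" are used below for genes past this threshold. All 38 were above 1 FPKM in every library, so none entered the fit through 1 group alone. The control lay above both CD137 libraries for 33 genes, below both for 4 (Rad51b, Xrcc3, Fancl and Msh3) and between them for Mus81; over all expressed genes it lay above both for 40.2% and below both for 49%. The median log2 fold change was -0.35 for the 38 genes and 0.03 for all expressed genes. In the limma fit of all 16003 genes 0 genes passed. The smallest adjusted p there was 0.0802, shared by several repair genes, and 24 repair genes were lower and 1 higher at an unadjusted p under 0.05, among 5281 such genes in all.

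**Figure D1:**
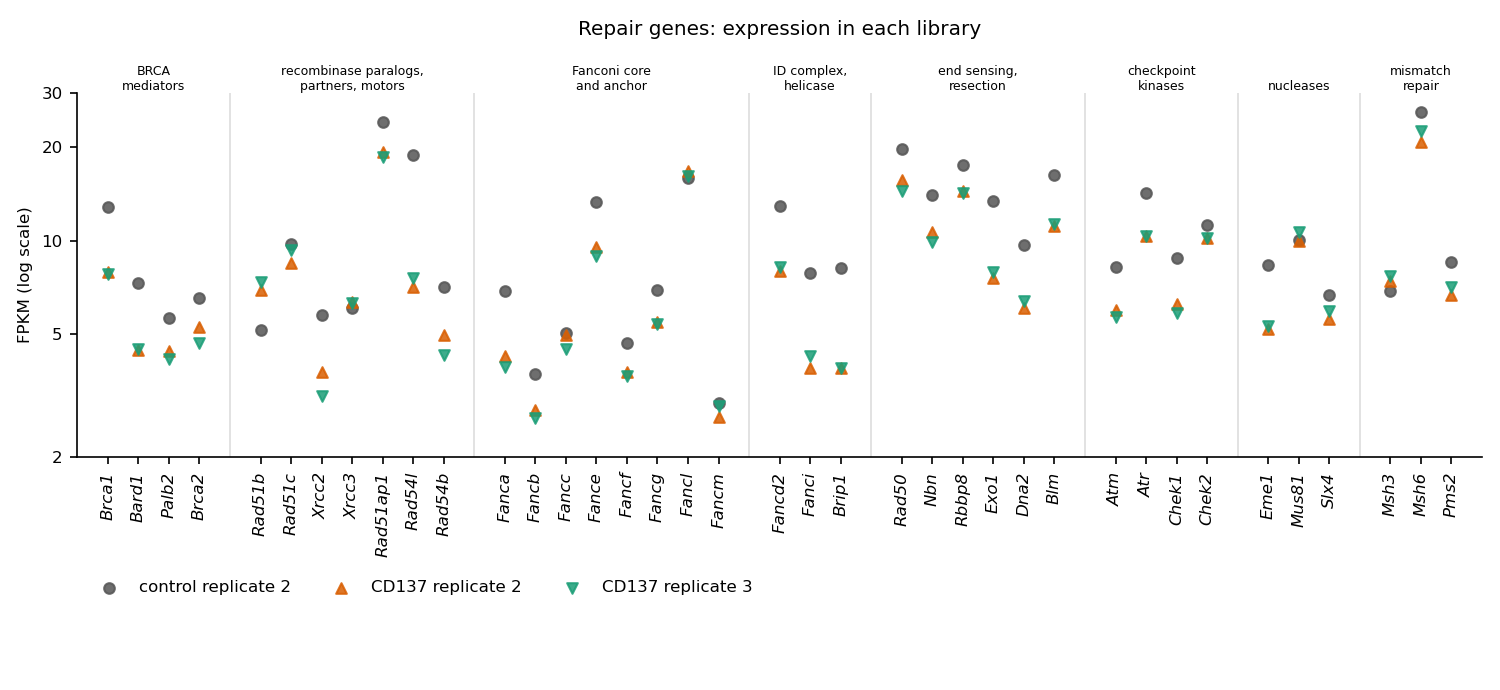
FPKM (log axis) of each of the 38 repair genes in control replicate 2 (circles) and CD137 replicates 2 and 3 (triangles), ordered by role. The control point lies above both CD137 points for 33 genes, and the largest separation is that of Rad54l.

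Levels per transcript length were moderate. In the control the 38 genes ran from 2.99 FPKM (Fancm) to 26.01 FPKM (Msh6) with a median of 8.43 FPKM, against a median of 14.5 FPKM for expressed genes. The medians in CD137 replicates 2 and 3 were 6.49 and 6.76 FPKM. Solved fragment numbers ran from 109 to 2008 per gene and library, so counting error was small for the well covered genes and wider for Fancf, Rad51b and Fancb. Among the genes that fell, CD137 levels were 0.389 to 0.832 of the control, with 15 genes at or under 0.7. For each of these 27 the difference from the control was more than 2 times the gap between the CD137 libraries. The residual error of the fit comes from that same gap, so this follows in part from how the 27 were called and adds no support.

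**Figure D2:**
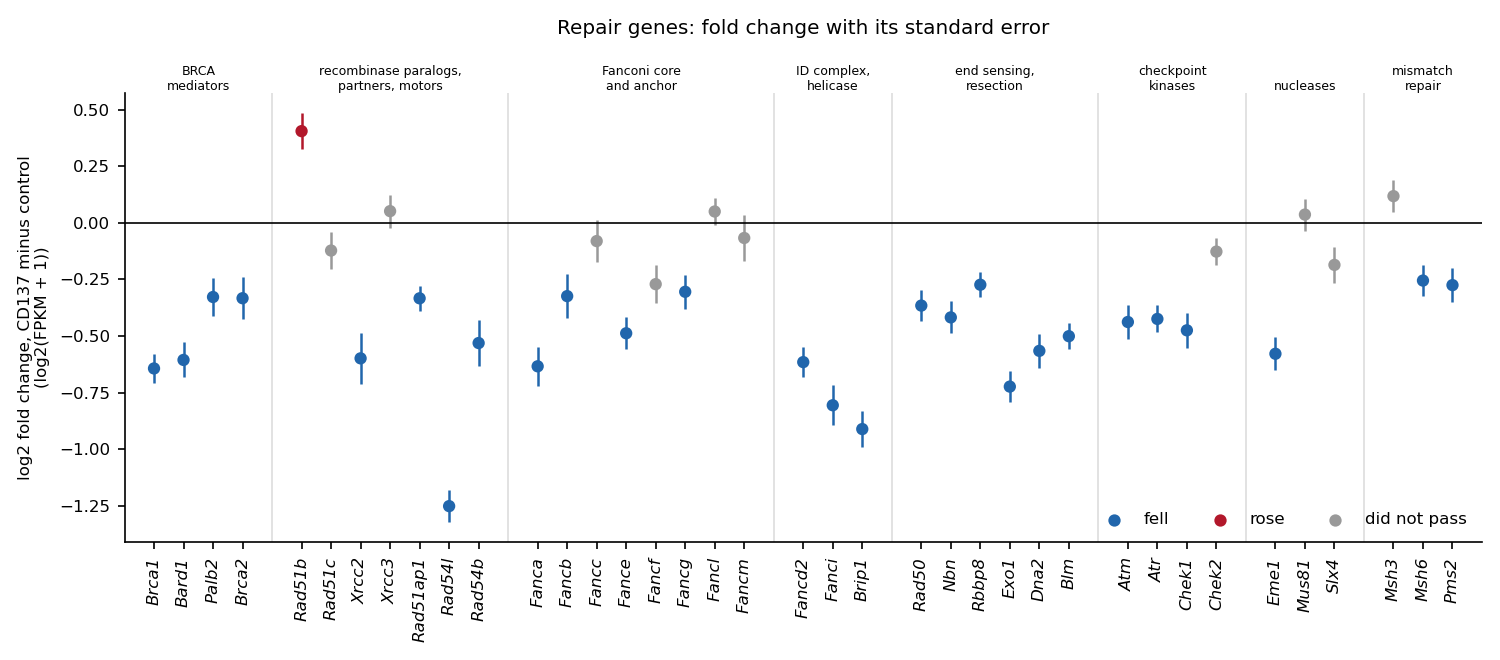
Log2 fold change (CD137 minus control, on log2(FPKM + 1)) of each repair gene with its limma standard error as a vertical bar, ordered by role. Blue points fell, the red point (Rad51b) rose and grey points did not pass; the lowest point is Rad54l at -1.25.

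Promoter sequences are shown for a few genes that were not picked by rank of change. Brip1 and Fanci fell further than Brca1 and are not shown. RefSeq promoters on GRCm38.p6, the assembly also called mm10, running from 250 bases before to 50 bases after each gene's start, were found for 31 of the 38 genes by symbol and gene ID. Those without one were Rad54b, Xrcc2, Fancd2, Exo1, Rad50, Nbn and Rbbp8, all of which fell. Only genes that fell are therefore missing from the promoter counts here and below. Stretches of 150 bases just before the start, taken from the more upstream of the starts in RefSeq and in the table, are given for Rad54l, which fell most, for Brca1, and for Rad51b, which rose. Capitals mark CCAAT, the box bound by the factor NF-Y, or its reverse complement ATTGG; all are written 5' to 3' on the strand of the gene.
Rad54l (chr4:116123691-116123840, minus strand): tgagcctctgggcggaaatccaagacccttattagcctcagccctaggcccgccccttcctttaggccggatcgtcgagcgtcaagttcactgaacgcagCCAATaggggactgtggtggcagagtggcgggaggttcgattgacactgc
Brca1 (chr11:101551958-101552107, minus strand): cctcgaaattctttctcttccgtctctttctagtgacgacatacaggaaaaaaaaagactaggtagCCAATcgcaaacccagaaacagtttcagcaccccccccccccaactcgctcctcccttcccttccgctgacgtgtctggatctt
Rad51b (chr12:79297132-79297281, plus strand): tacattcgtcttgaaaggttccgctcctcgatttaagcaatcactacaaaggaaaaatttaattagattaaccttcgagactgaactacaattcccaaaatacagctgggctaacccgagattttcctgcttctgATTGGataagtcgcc
The box occurs in both falling genes and in the rising one. CCAAT was found on either strand in 19 of the 31 promoters (61.3%), against 43.8% of 8333 promoters of expressed genes and 41.1% of 27025 promoters in all. Of these 19 genes 12 fell, beside 20 that fell among all 31.

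A second set of letters, TTTCCCGC or TTTGGCGC on either strand, matches the site of the E2F factors that drive S-phase genes. It was found in 7 of the 31 promoters (22.6%), against 3.71% of promoters of expressed genes and 1.8% of all. The 30 bases around each match are shown so that the genes that fell and those that did not pass can be compared, with the match in capitals.
Bard1 (chr1:71103163-71103192, minus strand): ccgccgctcagTTTCCCGCtcaggaagttt
Brca2 (chr5:150522442-150522471, plus strand): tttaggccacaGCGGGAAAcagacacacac
Fancg (chr4:43010335-43010364, minus strand): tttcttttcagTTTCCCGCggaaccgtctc
Msh6 (chr17:87975054-87975083, plus strand): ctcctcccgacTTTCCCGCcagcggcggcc
Chek2 (chr5:110839820-110839849, plus strand): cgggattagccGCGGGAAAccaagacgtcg
Msh3 (chr13:92355187-92355216, minus strand): ttgccgtcaagTTTGGCGCgaaatcgcagc
Rad51c (chr11:87404941-87404970, minus strand): cccccgcgaggGCGGGAAAagcaaggggtc
Of these genes Bard1, Brca2, Fancg and Msh6 fell, while Chek2, Msh3 and Rad51c did not pass, so the letters occurred on both sides. Relative to the RefSeq start, the match in Msh6 lies just after it, and the match in Rad51c begins before it and runs across it. TTTGAA, the core of the CHR element of mitotic genes, was found in 3 of the 31 (Bard1, Eme1 and Rad51b; 9.68%), against 14.6% of promoters of expressed genes. No difference in these shares was tested, and a match of letters is not a bound site.

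The 4 BRCA mediators all fell. Brca1 (chr11:101488761-101551957, mm10), whose promoter is shown above, encodes the scaffold ubiquitin ligase of the pathway and was at 12.9 FPKM in the control and at 7.94 and 7.83 FPKM in CD137 replicates 2 and 3. On the log2 scale it changed by -0.64 ± 0.06 (SE, adjusted p = 0.00250). Bard1, its obligate partner, was at 7.31 FPKM in the control and at 4.44 and 4.48 FPKM in CD137 cells (-0.61 ± 0.08, adjusted p = 0.00457). The partners thus changed by nearly the same ratio, 0.612 and 0.610 of the control. Palb2, which bridges BRCA1 and BRCA2, was at 5.62 FPKM against 4.39 and 4.16 FPKM (-0.33 ± 0.08, adjusted p = 0.0321). Brca2, the loader of the recombinase, was at 6.52 FPKM in the control and at 5.26 and 4.69 FPKM in CD137 cells. Its CD137 libraries differed beyond counting error, but both lay under the control.

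The recombinase paralogs, partners and motors spanned the widest range, with 4 of 7 lower and 1 higher. Rad54l (chr4:116094261-116123690), a motor that remodels the recombinase filament on DNA, fell more than any other of the 38. It was at 18.8 FPKM in the control and at 7.09 and 7.58 FPKM in the CD137 libraries, a log2 difference of -1.25 ± 0.07 (SE, adjusted p = 0.000928). Its paralog Rad54b fell from 7.10 FPKM to 4.96 and 4.27 FPKM, or 0.650 of the control. Rad51ap1, a binding partner of the recombinase, was the most abundant of this group at 24.2 FPKM against 19.4 and 18.6 FPKM (-0.33 ± 0.06, adjusted p = 0.00966).

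The recombinase paralogs themselves went different ways. Xrcc2 was at 5.74 FPKM in the control and at 3.76 and 3.16 FPKM in CD137 cells (-0.60 ± 0.11, adjusted p = 0.0135). Rad51b (chr12:79297282-79848260), which works with Rad51c and Xrcc2 in the complex called BCDX2, rose from 5.15 FPKM to 6.91 and 7.38 FPKM, or by log2 0.40 ± 0.08 (SE, adjusted p = 0.0148). Control and CD137 values did not overlap for either gene, and the directions were opposite. Most expressed genes show no overlap with 1 control library, 40.2% with the control above and 49% with it below. Rad51c was at 9.78 FPKM against 8.47 and 9.35 FPKM, and Xrcc3, its partner in a second complex, at 6.05 FPKM against 6.32 and 6.29 FPKM; neither passed. The increase of Rad51b rests on 162, 209 and 227 fragments, and the table lists 25 transcripts for this long gene.

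Of the 8 genes of the Fanconi core complex and its anchor, 4 fell and 4 did not pass. Fanca was at 6.88 FPKM in the control and at 4.24 and 3.92 FPKM in CD137 cells (-0.63 ± 0.09, adjusted p = 0.00550), and Fance, the subunit that contacts the substrate, at 13.4 FPKM against 9.54 and 8.93 FPKM (-0.49 ± 0.07, adjusted p = 0.00623). Fancg fell from 6.95 FPKM to 5.48 and 5.39 FPKM (-0.31 ± 0.07, adjusted p = 0.0280). Fancb, at 3.70 FPKM against 2.83 and 2.68 FPKM, fell just inside the threshold (adjusted p = 0.0479), and Fancf, at 4.69 FPKM against 3.76 and 3.67 FPKM, lay just outside it (adjusted p = 0.0565), although their ratios to the control were alike at 0.745 and 0.792. Fancl, the catalytic ubiquitin ligase of the complex, did not pass, with 15.9 FPKM against 16.8 and 16.2 FPKM. Fancc (5.05 against 4.97 and 4.48 FPKM) and Fancm, the DNA translocase that anchors the complex (2.99 against 2.69 and 2.93 FPKM), did not pass either. The gene of the enzyme was at 1.04 of the control, while Fanca and Fance were at 0.593 and 0.692. Annotated exons of Fancl share 462 bases with Vrk2 on the opposite strand, and those of Fanca share 552 with Zfp276. Vrk2 was at 15.93 FPKM in the control and at 17.77 and 17.45 FPKM in CD137 replicates 2 and 3. The part of shared reads in these ratios was not tested.

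Downstream of the core, the ID complex and the helicase BRIP1 all fell. Fancd2 and Fanci form the clamp that the core complex marks with ubiquitin. Fancd2 was at 12.98 FPKM in the control and at 8.01 and 8.24 FPKM in CD137 cells (-0.62 ± 0.06, adjusted p = 0.00285). Fanci was at 7.86 FPKM against 3.89 and 4.25 FPKM (-0.81 ± 0.09, adjusted p = 0.00309). Brip1 (chr11:86058131-86201267), also known as FANCJ, binds BRCA1 and was at 8.16 FPKM in control cells, against 3.87 FPKM in each CD137 library (-0.91 ± 0.08, adjusted p = 0.00191). These 3 genes had a median ratio of 0.518 to the control, against 0.787 for the core complex group; the difference between the groups was not tested.

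All 6 genes that sense, trim and unwind broken ends fell. Exo1 (chr1:175880760-175911396), an exonuclease shared with mismatch repair, showed the largest change here, from 13.4 FPKM to 7.57 and 7.92 FPKM (-0.72 ± 0.07, adjusted p = 0.00216). Dna2, the nuclease of the other long-range resection route, fell from 9.70 FPKM to 6.06 and 6.40 FPKM (-0.57 ± 0.07, adjusted p = 0.00494), and Blm, the helicase that works with it, from 16.3 FPKM to 11.1 and 11.3 FPKM (-0.50 ± 0.06, adjusted p = 0.00372). Rad50 and Nbn, of the complex that tethers and senses ends, were at 0.765 and 0.731 of the control, with 19.7 FPKM against 15.7 and 14.5 FPKM for Rad50 and 14.1 FPKM against 10.7 and 9.92 FPKM for Nbn. Rbbp8, which encodes the resection starter CtIP, was at 17.6 FPKM against 14.5 and 14.3 FPKM, or 0.817 of the control. The ratios of Exo1, Dna2 and Blm were 0.576, 0.642 and 0.689; differences between genes were not tested, and the counting intervals of Nbn (0.663 to 0.821) and Blm (0.642 to 0.740) overlap.

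Of the 4 checkpoint kinases Atm, Atr and Chek1 fell. Atr, which responds to single-stranded DNA, was at 14.2 FPKM in the control and at 10.3 and 10.4 FPKM in CD137 cells (-0.42 ± 0.06, adjusted p = 0.00594). Chek1, the effector kinase of ATR, was at 8.81 FPKM against 6.26 and 5.86 FPKM (-0.48 ± 0.08, adjusted p = 0.00886), and Atm, which responds to double-strand breaks, at 8.24 FPKM against 5.96 and 5.68 FPKM (-0.44 ± 0.08, adjusted p = 0.0102). Chek2, the effector kinase of ATM, did not pass, with 11.3 FPKM in control cells against 10.2 FPKM in each CD137 library (adjusted p = 0.155). Both CD137 values lay under the control, at 0.908 of it on average.

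Among the structure-specific nucleases 1 of 3 fell. Eme1 and Mus81 encode the partners of 1 nuclease, of which MUS81 carries the catalytic site. Eme1 was at 8.32 FPKM in the control and at 5.19 and 5.29 FPKM in CD137 cells (-0.58 ± 0.07, adjusted p = 0.00457), whereas Mus81 was at 10.1 FPKM against 9.99 and 10.7 FPKM (0.04 ± 0.07, adjusted p = 0.706). Only Mus81 of the 38 genes had a control value between its CD137 values. Slx4, the scaffold for several nucleases, was at 6.70 FPKM against 5.59 and 5.95 FPKM (-0.19 ± 0.08, adjusted p = 0.119).

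Of the 3 mismatch repair genes 2 fell, each to over 0.8 of the control. Msh6, the partner that recognises single mismatches, was at 26.01 FPKM in the control and at 20.8 and 22.5 FPKM in CD137 cells (-0.26 ± 0.07, adjusted p = 0.0340). Pms2, an endonuclease subunit, was at 8.54 FPKM against 6.66 and 7.11 FPKM (-0.28 ± 0.08, adjusted p = 0.0392). Msh3, which recognises larger loops, did not pass, with 6.87 FPKM against 7.39 and 7.69 FPKM (0.12 ± 0.07, adjusted p = 0.242). The genes of the alternative mismatch-recognition subunits MSH6 and MSH3 therefore lay on opposite sides of their controls. Their values did not overlap, as for most expressed genes (control above for 40.2%, below for 49%).

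Fragment numbers gave a second reading of the same libraries, but not an independent one. Solutions were searched only near each gene's FPKM ratio, so closeness of fragment and FPKM ratios is in part built in. For each gene the fragments of the CD137 libraries were set against those of the control, scaled for depth, with an exact 95% binomial interval that covers counting error only. The interval lay under 1 for 29 of the 38 genes and above 1 for Rad51b and Msh3, while for 7 it held 1; over 10288 expressed genes solved in this way 27.7% lay under 1 and 35.4% above. The ratio was 1.37 for Rad51b (1.14 to 1.65) and 0.474 for Brip1 (0.434 to 0.518). For Msh3 it was 1.12, with a lower bound of 1.002. Between the CD137 libraries themselves the interval left out 1 for 4 of the 38 genes, Brca2, Rad50, Rad54b and Msh6. The share over all expressed genes was not computed, so this count cannot be read as a trait of the repair genes. Limma-voom on these fragments, an alternative to the FPKM fit with the same limit, called 28 of the 38 lower and 1 higher. Over all 10288 genes the shares were 21.6% and 27%.

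For 4 genes the ratio in fragments differed by more than 5% from the ratio in FPKM. Over 9297 expressed genes with at least 100 control fragments 3.94% did so. Palb2 was at 0.761 of the control in FPKM and at 0.629 in fragments (0.544 to 0.728), from 342 fragments in the control and 216 and 208 in the CD137 libraries. Atr was at 0.727 in FPKM and 0.646 in fragments (0.605 to 0.690). Eme1 was at 0.630 in FPKM and 0.570 in fragments. Rad54l was the one whose change was smaller in fragments, at 0.432 (0.397 to 0.469) against 0.389 in FPKM. All 4 were lower by both measures. The strand setting of the counting is not given in the sources used here. In the GENCODE M21 annotation exons of Atr, Eme1 and Rad54l share bases with genes on the opposite strand, 128 of them between Rad54l and Lrrc41. No shared bases were found for Palb2. Fanci, which shares 665 bases with Polg on the opposite strand, was at 0.518 in FPKM and 0.517 in fragments. The part of shared reads in these gaps was not tested. Exons of 10 of the 38 genes share bases with another gene of the table, the most being 2068 between Rad54b and Fsbp on the same strand. Reads from the shared bases of that pair cannot be told apart by strand, and those of the opposite-strand pairs could be only if strand was used in the counting.

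**Figure D3:**
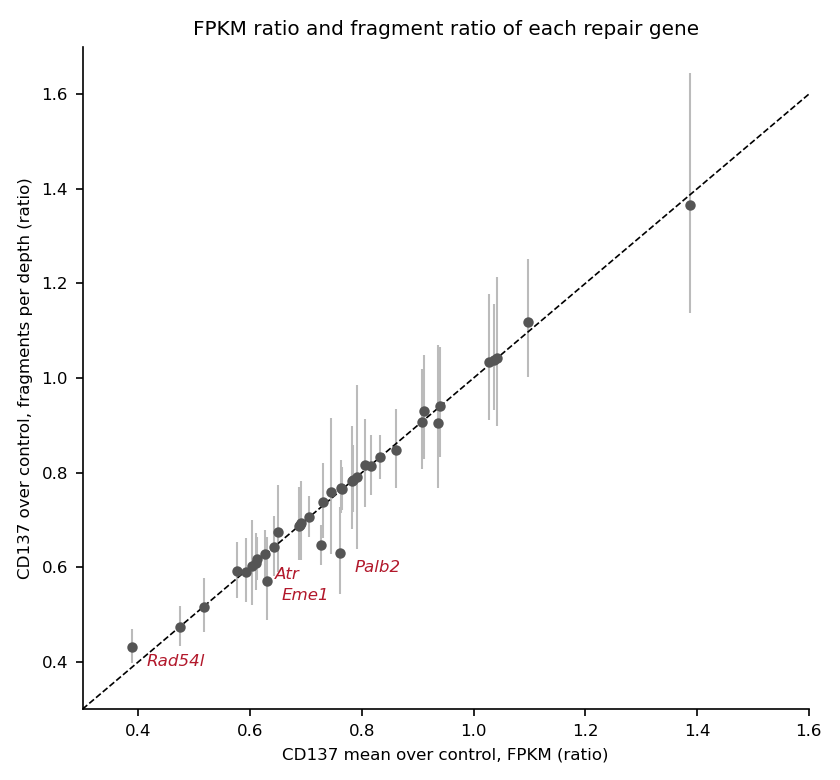
For each of the 38 repair genes, the ratio of the CD137 mean to the control in FPKM (horizontal) and in depth-scaled fragments (vertical, bars are exact 95% counting intervals); the dashed line marks equal ratios. Named genes differ by over 5%: Palb2, Atr and Eme1 lie under the line and Rad54l above it. Fragments were searched only near the FPKM ratio, so closeness to the line is in part built in.

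Of 61 further genes of recombination, crosslink and mismatch repair, all expressed, 19 fell, 5 rose and 37 did not pass, with a median log2 fold change of -0.12. Rpa1, the large subunit of the single-strand binding complex, fell from 65.6 FPKM to 39.0 and 37.4 FPKM. Topbp1, the activator of ATR, fell to 0.669 of the control and Gen1, a nuclease that cuts four-way junctions, to 0.569. Bre, a subunit of the BRCA1-A complex, rose from 54.8 FPKM to 76.4 and 78.4 FPKM. The other genes that rose were Rad52, from 14.3 FPKM to 21.1 and 23.2 FPKM, Ercc1, Faap20 and Nsmce2; these 4 are named after their values were seen. Rad52 encodes an annealing protein that can act beside the BRCA2 route.

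Repair routes that do not use a sister chromatid are set beside the shares of all expressed genes, 18.2% lower and 24.4% higher. In nucleotide excision repair 4 of 25 genes fell and 4 rose (16% each), no more than over all expressed genes, with a median log2 fold change of 0.03. Ddb1 fell to 0.773 of the control, whereas the damage-binding gene Xpa rose from 6.24 FPKM to 9.94 and 10.1 FPKM, and Ccnh and Mnat1, of the kinase part of TFIIH, rose 1.45-fold and 1.29-fold. In base excision and single-strand break repair 9 of 20 expressed genes fell (45%) and 5 rose (25%), with a median of 0.06. Parp1, the sensor of strand breaks, fell from 101 FPKM to 60.7 and 60.9 FPKM, and Xrcc1, Mbd4 and Apex1 fell to 0.805, 0.707 and 0.841 of the control.

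Non-homologous end joining, which rejoins ends without a template, had 1 of 12 expressed genes lower and 1 higher (8.33% each, median 0.09), also under the shares of all expressed genes. Xrcc6, which encodes Ku70, was at 28.8 FPKM against 25.5 and 25.2 FPKM, and Dclre1c, the nuclease Artemis, at 18.6 FPKM against 22.5 and 21.2 FPKM. Lig4 (2.29 against 2.98 and 2.93 FPKM) and Mad2l2 (19.3 against 21.4 and 23.1 FPKM) did not pass. Differences between these lists and the 38 genes were not tested.

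Genes of DNA replication were lower together with the repair genes. Of 37 expressed members 35 fell and 0 rose, with a median log2 fold change of -0.61, led by the helicase subunit Mcm6 at 89.4 FPKM against 32.7 and 34.5 FPKM. Mcm3, Mcm5 and the clamp Pcna were at 0.555, 0.547 and 0.627 of the control. In limma-voom on fragments the replication list also had 0 genes higher. Of 29 mitotic genes 20 fell and 2 rose (median -0.29), with Bub1 at 0.626, Kif20a at 0.665, Ccna2 at 0.699 and Top2a at 0.720 of the control. The part of this shift in cell cycle genes in the values of the repair genes was not tested.

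**Figure D4:**
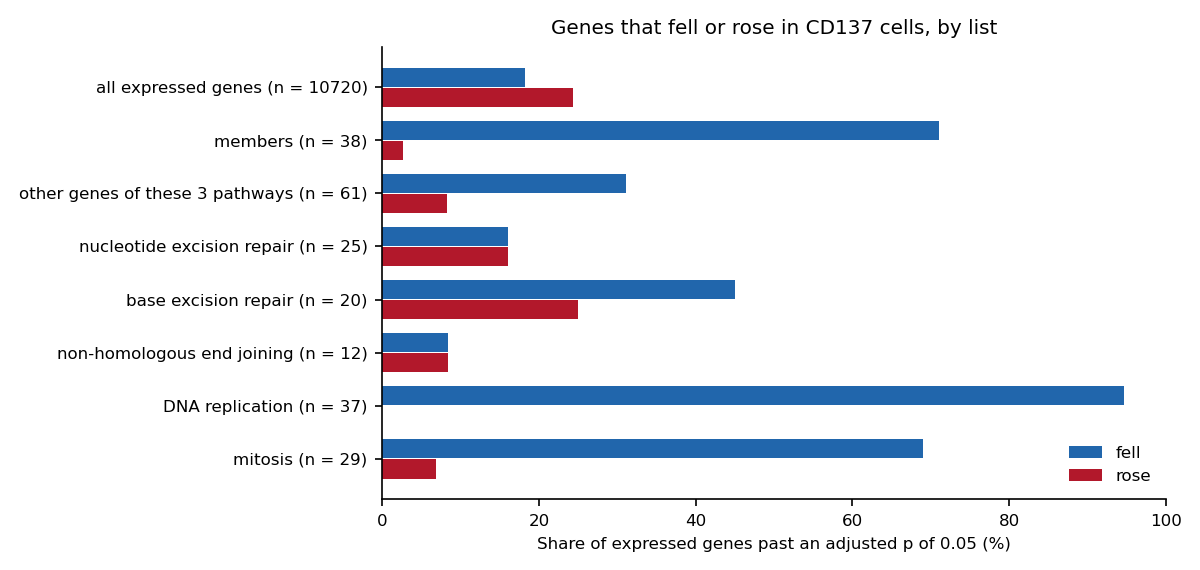
Share of expressed genes (horizontal axis, percent) that fell (blue) or rose (red) in CD137 cells in the limma fit, for all 10720 expressed genes, the 38 repair genes (members) and 6 comparison lists, with the number of genes in each. Repair genes and the replication and mitosis lists have long blue bars, and end joining and nucleotide excision repair have bars of equal length.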

How the data were processed

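RNA selected with oligo-dT beads was sequenced, per the labels. The authors deposited 1 FPKM value for each gene in each library, to 0.01. The submitters' processing notes list HISAT2, Bowtie2, RSEM and mm10, with no role or version. Also deposited by the authors are log2 ratios between pairs of libraries, which equal the log2 ratio of FPKM, p-values of a Poisson test on 2 libraries, and adjusted values that exceed 1 for some genes and were treated as a score and not used. Of 21990 genes 5987 have no value, and 1 broken line was left out.

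Here log2(FPKM + 1) of expressed genes was fitted with limma 3.58.1 in R 4.3.3, with a mean-variance trend and Benjamini-Hochberg adjustment over 10720 genes. The fit has 1 residual degree of freedom, from the CD137 libraries, whose spread stands for that of the control. The fit was tested on simulated data for this comparison (10458 genes, 1.91 percent spread between libraries). It called 10 percent of 1.2-fold changes, 84 percent at 1.5-fold, 88 percent at 2-fold and 98 percent at 4-fold, with 3 false calls. Far fewer genes were changed there than were called in these data, so the rates do not carry over directly. The simulated control had the same spread as the CD137 libraries, so the false calls do not cover a difference between cultures. Whole fragments were solved from each gene's 3 deposited p-values and FPKM for 13129 genes, including all 38; tested on simulated data, 96.4 percent of 281 cases were solved, all of those rightly. For Atr, Eme1, Palb2 and Rad54l the fragment and FPKM ratios were let differ more than for other genes before a solution was found, a step the simulated data did not cover.

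The genes, lists and tests were chosen with earlier results of these data known. Each of the 38 genes is named; standard errors and adjusted p-values are given for up to 3 genes of each of 8 role groups, those with the smallest p, and for every one that rose; the adjusted p of Fancb, Fancf and Chek2 was added after their values were seen. From other lists up to 4 genes with the smallest p are named. Alternatives were other pseudocounts (0.1 and 0.5), other filters, rescaled libraries, no trend, fragments with limma-voom, and each CD137 library left out.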

Additional observations from a re-analysis of the deposited data

How the results depend on the processing

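Of the 27 lower genes and the 1 higher gene, each kept its call with pseudocounts of 0.1 or 0.5 and with a mean of at least 1 FPKM. Rescaled libraries and limma-voom on fragments added 1 gene each, Fancf and Slx4, for 28 lower, and limma without a trend lost Brca2 and Msh6 and gained Fancf. Without a filter, over 16003 genes, limma called 0 of the 38 genes, 0 genes in all and 0 in every list. Limma-voom was run only on the 10288 expressed genes with solved fragments, where it called 2219 lower and 2773 higher genes. The median log2 fold change of the repair genes was -0.42 with a mean of at least 5 FPKM, which keeps 32 of them, and -0.42 in limma-voom, and lay between -0.41 and -0.31 when 1 CD137 library was left out. Without CD137 replicate 3 Mus81 turned to -0.0079 on the log2 scale, and without CD137 replicate 2 it was 0.08. Without a trend, 2 nucleotide excision repair genes were lower, 0 end joining genes were lower and 0 mitotic genes higher; in limma-voom 3 end joining genes were lower and 2 higher, and in rescaled libraries 0 were higher. The cause was not tested. No paired analysis was possible because the table holds only replicate number 2 in both groups. Precision is limited by 1 control library and, for the least covered genes, by fragment numbers of about 109 to 227.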

Other observations

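The epithelial markers Krt8, Krt18, Epcam and Cdh1 were at 2.60, 2.59, 0.44 and 0.65 FPKM in CD137 replicate 2, against 0.66, 0.37, 0.08 and 0.06 FPKM in CD137 replicate 3 and 0.25, 0.32, 0.03 and 0.07 FPKM in the control. The median log2 fold change of the 38 repair genes was -0.41 without CD137 replicate 2 and -0.31 without CD137 replicate 3.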
